A study of Bos taurus with 15 samples.

Results

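Transcripts of the cell cycle and of the meiotic spindle were followed in bovine oocytes of the dominant follicle (DF) as ovulation approached. The 47 genes are those of 21218 counted genes whose symbol, in the study's table of genes that differed between >120 μm and DF oocytes, is TPX2 or begins with a prefix of cell division genes (CDC, CDK, KIF, CENP, PLK, ANAPC, TUBA, TUBB, TUBG, SMC, CEP with a digit, BUB, AURK or a cyclin prefix). That table listed 24 of them as higher in DF oocytes and 23 as higher in >120 μm oocytes, so the study chose them on these oocytes, although not on their time of collection. Genes outside the table had no symbol here, and genes such as those for cyclin B or for the catalytic subunit of maturation promoting factor were not analysed here. Of the 47 genes, 5 were set apart here as taken in by the prefix (CDC42BPA, CDK2AP1, CDK2AP2, CDK5RAP1 and CDK5RAP3). This grouping is loose, since CDK2AP1 binds CDK2.

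Single-cell RNA sequencing covered 15 oocytes, each from a different heifer. All animals were crossbred beef heifers that had been synchronized with gonadotrophin-releasing hormone (GnRH), an intravaginal progesterone device and prostaglandin, without ovarian stimulation by FSH. The 6 oocytes T1.1 to T1.6 were collected 24 h before ovulation, the 4 oocytes T2.1 to T2.4 were collected 19-23 h after oestrus was detected, and the 5 oocytes T3.1 to T3.5 were collected 2 h before ovulation. The study's methods give the same day of slaughter for 19-23 h after oestrus detection and for about 2 h before ovulation. They name a second dose of GnRH for a subgroup collected on that day, without giving it for each heifer. A comparison with T3, or with T2, may thus also compare this treatment. The order of T2 and T3 in time is not given either. The titles of the T2 samples say before ovulation where their treatment label, used here, says after oestrus detection. The study left out 4 of the oocytes (1 of T1, T1.4, and 3 of T3, namely T3.1, T3.3, T3.5), and the other 11 (5 of T1, 4 of T2, 2 of T3) were the oocytes compared here. Its methods name few counts inside genes as the reason, although T1.4 had 2874041 deposited counts, more than T1.6 (824854), which was kept. Total counts of the 11 oocytes ranged from 824854 to 4894970, and those of the 4 left out from 175263 to 2874041. Heifers were drawn from previous trials, and which trial each belonged to is not given in the sources used here, so time and trial cannot be told apart.

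A fully grown oocyte is held in prophase of the first meiotic division until the surge of luteinizing hormone releases it. It then breaks down its germinal vesicle, builds a spindle without centrioles, attaches chromosomes to it through their kinetochores and divides. Kinases such as PLK1 drive entry into this division, the anaphase-promoting complex (APC/C) with its activator CDC20 ends it, and motor proteins such as KIF11 shape the spindle. Transcription is largely silent at this time, and messenger RNAs are stored, polyadenylated, translated or degraded. The libraries were made with Smart-seq2, which captures messenger RNA by its poly-A tail.

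The labelled cell type was checked first. Of 15 oocyte markers, 5 had a symbol (OOSP2, KPNA7, FIGLA, NLRP5 and NOBOX), and their summed level lay between 3306 and 15836 CPM (counts scaled to the total of the library) in the 11 oocytes. For cumulus and granulosa cells 2 of 22 markers had a symbol (STAR and KRT19), and they summed to 98.8 to 413 CPM in T1, 200 to 399 CPM in T2 and 54.2 to 123 CPM in T3. For leukocytes 4 of 15 had a symbol (IRF8, FERMT3, CSF1R and PTPRCAP), with sums of 95 to 312 CPM in T1, 124 to 344 CPM in T2 and 58.6 to 114 CPM in T3, and PTPRCAP had no count in T1.1, T1.2, T2.1, T3.2 or T3.4. On this scale both sums were lower in the 2 T3 oocytes than in the 4 T2 oocytes. With the scaling used for the levels below, STAR and FERMT3 were lower in both T3 oocytes than in every T2 oocyte. The other markers were not: IRF8 stood at 6.78 log2 CPM in T3.4 and 6.33 in T2.3. CSF1R, at 4.04 in T3.4, was above all T2 oocytes, KRT19, at 3.86 in T3.2, was within the T2 range, and PTPRCAP had no count in T2.1 either. The part of these cells in the differences between T2 and T3 was not tested.

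Transcripts of this machinery were present throughout. Among the 47 genes, 36 had a count in all 11 oocytes and 18 in all 15, and none was without a count in the 11. Each of the 11 oocytes held counts for 40 to 47 of the genes, while the 4 left out held counts for 22 in T3.5, 31 in T3.1, 37 in T1.4 and 38 in T3.3. Together the genes took between 0.820% (T1.2) and 2.24% (T2.3) of the counts of a library, and KIF20B and CENPF alone took 28.4% to 48.1% of that portion.

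**Figure D1:**
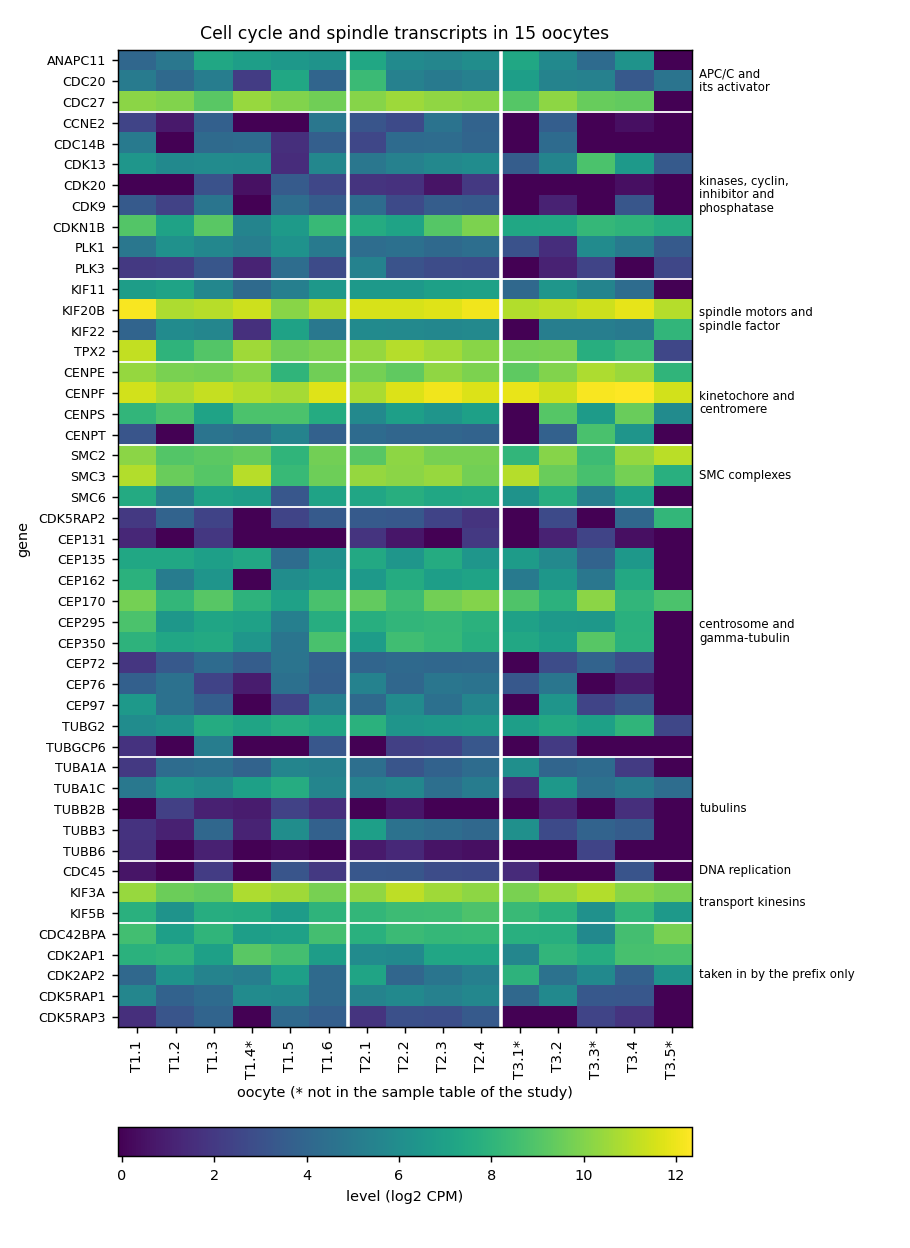
Level (log2 CPM, colour) of the 47 genes (rows, grouped by role) in each of the 15 oocytes (columns, with white lines between the time points; oocytes marked * were left out by the study). KIF20B and CENPF are bright in every column, while CEP131, TUBB2B and TUBB6 are dark in nearly all, and T3.5 has no count for 25 of the genes.

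Levels are given as log2 CPM, scaled with the TMM method and with a prior count of 2, so that a gene without a count stands at -0.08. Differences between time points are log2 fold changes from the edgeR quasi-likelihood test, in a single fit of the 11 oocytes, with Benjamini-Hochberg adjustment over the 10198 genes that passed the filter on low counts. A gene was called at an adjusted p of 0.05 and a log2 fold change of at least 1.5 in size. Of the 47 genes, 44 passed the filter, and CEP131, TUBB2B and TUBB6 did not, each with counts in 7 of the 11 oocytes and at most 10, 20 and 7 counts in any of them.

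By this test 0 of the 44 genes was called in any of the 3 comparisons, against a background of 0% of the 10198 genes. At an unadjusted p of 0.05 the numbers were 3 of 44 between T2 and T1 (12.2% of all genes tested), 3 of 44 between T3 and T2 (17.3%) and 1 of 44 between T3 and T1 (9.09%), which in each comparison is a smaller share than among all genes. The likelihood ratio test of edgeR called 1 of 44 lower and 0 higher in T2 than in T1 (background 3.29% and 0.245% of all genes), and 1 higher and 0 lower in T3 than in T2 (background 4.21% and 2.67%). DESeq2 called 1 lower and 0 higher in T2 than in T1 (background 4.97% and 0.268%), and 1 higher and 1 lower in T3 than in T2 (background 4.55% and 5.34%). For T3 against T1 the likelihood ratio test called 0 higher and 0 lower (background 0.127% and 1.24%), as did DESeq2 (background 0.0844% and 3.6%). With a filter of at least 10 counts in every oocyte, the quasi-likelihood test called 1 of 28 lower in T2 than in T1 (background 3.65%) and 1 of 28 higher in T3 than in T2 (background 4.25%), and without a filter it called 1 of 47 higher in T3 than in T2 (background 1.99%). The gene called in these cases was CENPS each time, except for the call of PLK3 as lower in T3 by DESeq2.

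As a group, the median log2 fold change from T1 to T2 was 0.30, with 29 of 44 positive, beside -0.20 over all 10198 genes. From T2 to T3 the median was -0.55, with 32 of 44 negative, beside -0.10 over all genes. With upper-quartile scaling the median of all genes between T3 and T2 moved to -0.26 and that of the 44 genes to -0.71. The gap to all genes depended on single T3 oocytes, since without T3.2 the medians were -0.58 for the genes and -0.64 for all genes, and without T3.4 they were -0.51 and -0.36. Under a minimum of 10 counts in each oocyte they were -0.25 and -0.0087. Between T3 and T1 the median was -0.14, with 25 of 44 negative, beside -0.21 over all genes, and it turned positive without T1.1 (0.04) or without T1.5 (0.09). These medians are descriptions and were not tested, and any 2 of the comparisons share the oocytes of a time point.

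The 24 genes listed as higher in DF and the 23 listed as higher in >120 μm oocytes differed in these medians. Genes listed for DF had a median of 0.40 from T1 to T2, with 21 of 24 positive, and of -0.33 from T2 to T3, with 16 of 24 negative. Their median between T3 and T1 was 0.27, with 14 of 24 positive, but with all 15 oocytes it was -0.17, with 10 of 24 positive. Of the 23 listed for >120 μm oocytes 20 were tested, and their medians were -0.08 from T1 to T2, -0.95 from T2 to T3 and -1.05 between T3 and T1, the last with 15 of 20 negative. With all 15 oocytes 19 were tested, and these medians were 0.08, -1.12 and -0.36, the last with 12 of 19 negative. With single oocytes left out, the median between T3 and T1 ran from -1.24 to -0.46. The sets also differed in level. In T3.2 and T3.4 the median of the 24 genes was 7.80 and 8.10 log2 CPM, and that of the 23 was 2.71 and 3.22. The part of low counts was not tested, nor was the difference between the sets, since the study chose both on these oocytes.

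**Figure D2:**
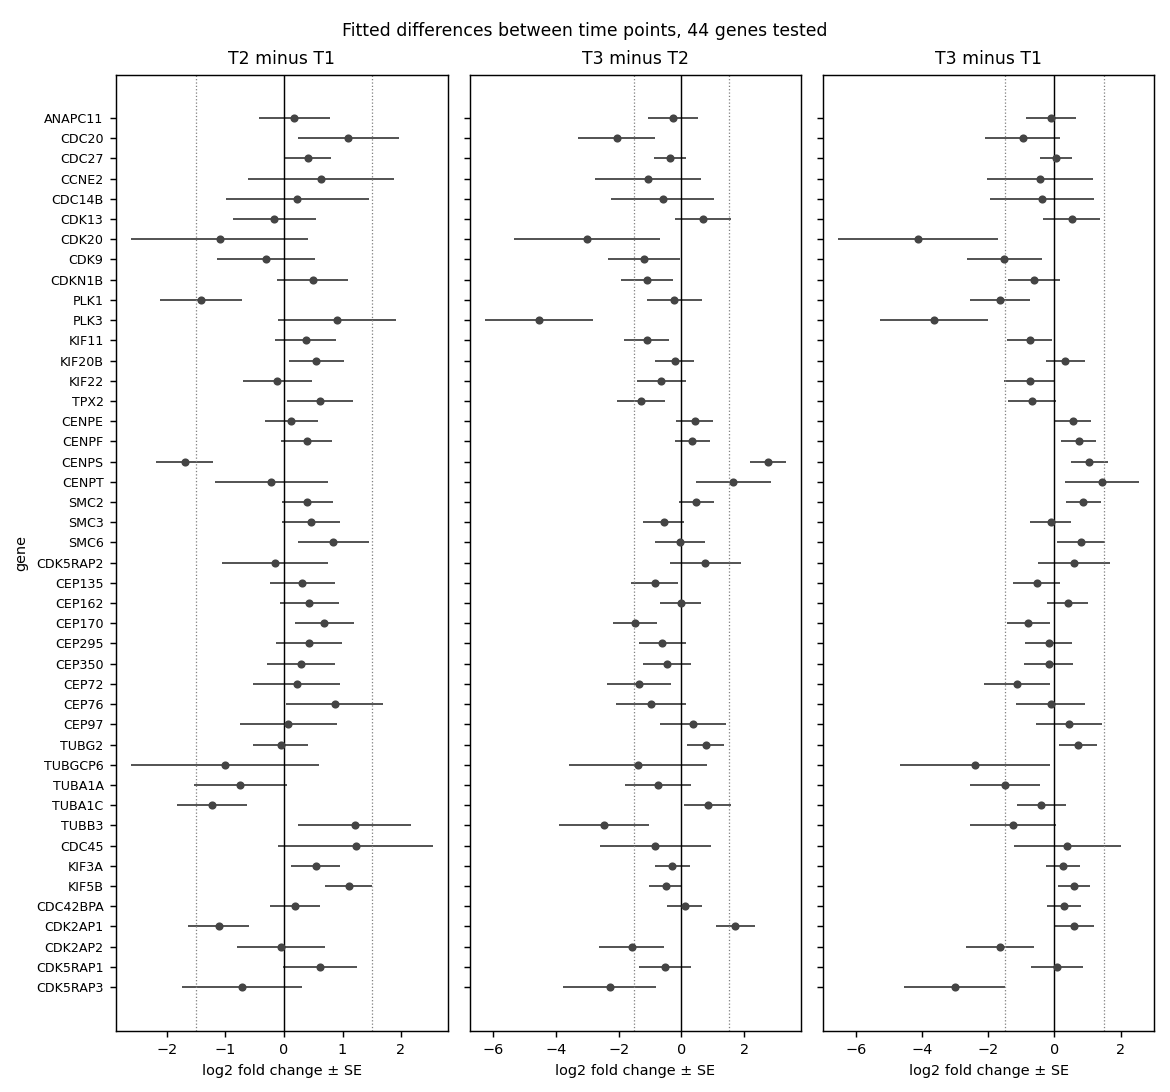
Log2 fold change (dot) and its standard error (bar) of the 44 genes tested, for T2 minus T1, T3 minus T2 and T3 minus T1, with dotted lines at the fold change of 1.5 in size that a call required. CENPS lies at -1.69 in the first panel and at 2.75 in the second, and PLK3 at -4.55 in the second.

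The kinetochore and centromere genes included CENPS, the gene with the smallest p-value of the 44 both from T1 to T2 and from T2 to T3. CENPS (ENSBTAG00000013531) encodes a histone-fold protein of the constitutive centromere, which pairs with CENPX and also serves in DNA repair. Its level was 8.11, 8.82, 7.13, 8.81 and 7.54 log2 CPM in T1.1, T1.2, T1.3, T1.5 and T1.6. It was 5.76, 6.94, 6.41 and 6.98 in T2.1 to T2.4, and 9.08 and 9.52 in T3.2 and T3.4. Every T2 oocyte was below every T1 oocyte, and both T3 oocytes were above all of the others. Of the 44 genes CENPS was the only one with both of these separations, and the share of all genes with both was not determined. Taken singly, T2 was below T1 in 2.43% of all genes tested. T3 was above T2 in 15.8% and above T1 in 3.65%.

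The log2 fold change of CENPS was -1.69 ± 0.48 (SE) from T1 to T2 and 2.75 ± 0.58 from T2 to T3. The edgeR quasi-likelihood test gave adjusted p-values of 0.150 and 0.0625, so neither passed. The likelihood ratio test gave adjusted p-values of 0.0385 and 0.00137 for the same contrasts and DESeq2 gave 0.0144 and 0.000936. For T3 against T2 the quasi-likelihood test passed without T1.1 (adjusted p = 0.0274) and without T1.2 (adjusted p = 0.0196). Between T3 and T1 the log2 fold change was 1.06 ± 0.55, with an adjusted p of 0.571 by the quasi-likelihood test.

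The oocytes left out by the study did not follow the T3 level of CENPS. T3.3 stood at 6.73 with 23 counts and T3.5 at 5.92 with 12 counts, both within the range of T2, and T3.1 had no count, which in that library allows up to 4.83 CPM. T1.4, at 8.84, lay at the top of the T1 range. With all 15 oocytes the log2 fold change from T1 to T2 was -1.76 (adjusted p = 0.921 by the quasi-likelihood test), from T2 to T3 it was 1.59 (adjusted p = 0.534), and between T3 and T1 it turned to -0.17 (adjusted p = 0.976). The high level at 2 h before ovulation thus rests on 2 of the 5 T3 oocytes.

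CENPE, the kinetochore motor that aligns chromosomes, and CENPF, a large protein of the outer kinetochore and nuclear matrix, were counted in all 15 oocytes. CENPE averaged 9.54 ± 0.87 (SD, n = 5), 9.80 ± 0.41 (SD, n = 4) and 10.23 ± 0.34 (SD, n = 2) log2 CPM in T1, T2 and T3, with overlapping ranges. CENPF averaged 11.19 ± 0.45, 11.55 ± 0.55 and 11.87 ± 0.67 over the same oocytes. Its log2 fold change between T3 and T1 was 0.73 ± 0.53 (adjusted p = 0.731 by the quasi-likelihood test). Without T3.4 it was 0.16, and for both genes the oocytes of the 3 time points overlapped.

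CENPT links the centromere to the microtubule-binding NDC80 complex. It lay between 3.90 and 4.24 log2 CPM in the 4 T2 oocytes, at 3.78 in T3.2 and at 6.41 in T3.4, and had no count in T1.2. Its log2 fold change from T2 to T3, 1.65 ± 1.19, rested on T3.4, and without that oocyte it was -0.34. All 4 kinetochore genes had positive fold changes from T2 to T3 (median 1.04), but 2 of 4 did without T3.4 (median -0.11). Between T3 and T1 all 4 were also positive, with a median of 0.90, and at least 3 of 4 stayed so whichever oocyte was left out. With all 15 oocytes 4 of 4 were positive from T2 to T3 (median 0.94) and 3 of 4 between T3 and T1 (median 0.46).

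**Figure D3:**
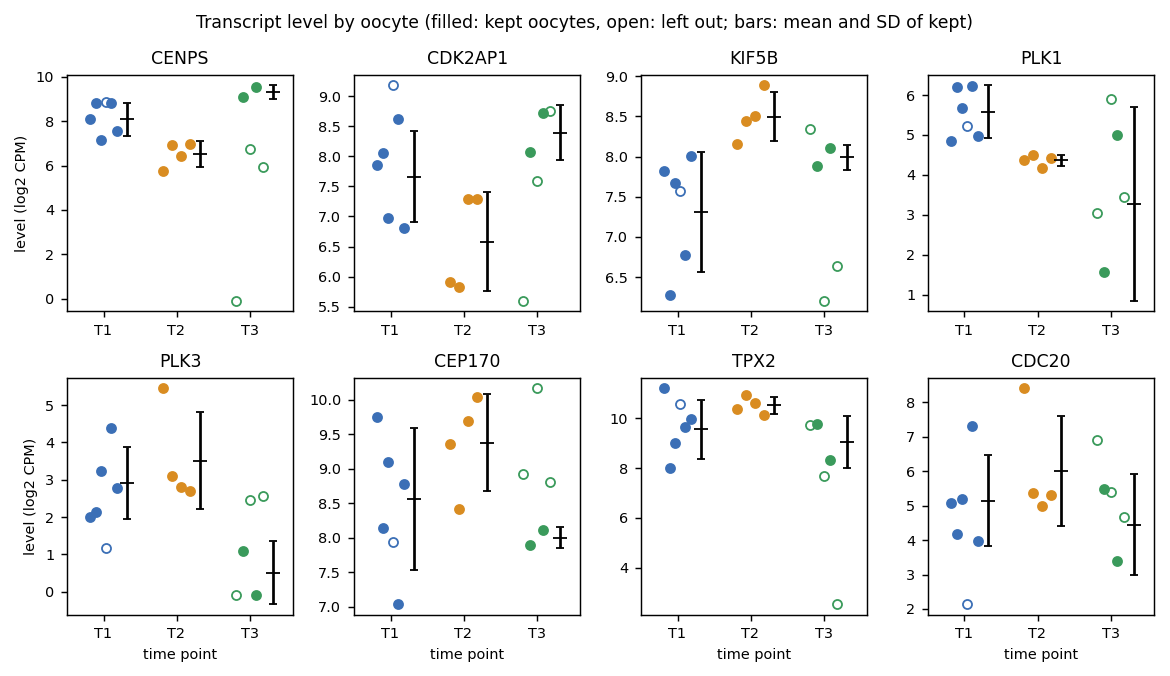
Level (log2 CPM) of 8 genes in each oocyte at the 3 time points, with filled points for the 11 oocytes compared, open points for the 4 left out by the study, and bars for the mean and SD of the filled points. Every filled T2 point of CENPS and PLK1 lies below every T1 point, and that of KIF5B above, while open T3 points scatter away from the filled ones.

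Among the kinases and cell cycle regulators, PLK1 (ENSBTAG00000014453) is the polo-like kinase that promotes meiotic resumption, spindle assembly and chromosome segregation. It stood at 4.84, 6.20, 5.67, 6.23 and 4.98 log2 CPM in the 5 T1 oocytes, and at 4.36, 4.50, 4.17 and 4.41 in the T2 oocytes. In T3.2 it was at 1.56, from 5 counts, and in T3.4 at 5.00, from 74 counts. All 4 T2 oocytes were below all 6 T1 oocytes, T1.4 included, whereas the T3 oocytes spanned both groups. The log2 fold change from T1 to T2 was -1.41 ± 0.70 (adjusted p = 0.435) and between T3 and T1 -1.64 ± 0.92 (adjusted p = 0.594), by the quasi-likelihood test. The latter was -0.70 without T3.2 and -4.62 without T3.4.

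PLK3 (ENSBTAG00000006125), a polo-like kinase of stress and checkpoint responses, had few counts throughout. It had 10, 9, 29, 93 and 6 counts in the T1 oocytes, 52, 23, 11 and 13 in the T2 oocytes, and 3 and 0 in the T3 oocytes. The level in T2.1 was 5.44 log2 CPM and that in the other T2 oocytes 2.69 to 3.09. Both T3 oocytes were below every T1 and T2 oocyte.

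In sums over oocytes, PLK3 had 99 counts in T2 and 3 in T3, a depth-corrected ratio of 23.4 (exact 95% interval 7.79 to 116, counting error only). The corresponding ratio of T1 to T3 was 17.7 (5.94 to 86.8). The fitted log2 fold changes were -4.55 ± 1.73 from T2 to T3 (adjusted p = 0.193) and -3.64 ± 1.63 between T3 and T1 (adjusted p = 0.530), by the quasi-likelihood test, and without T3.2 the remaining T3 oocyte has no count. DESeq2 gave an adjusted p of 0.0175 for the former. The T3 oocytes left out had 0, 1 and 1 counts at total counts of 620910, 271763 and 175263, and with them the log2 fold change from T2 to T3 was -3.32 (adjusted p = 0.352 by the quasi-likelihood test).

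Among the other regulators, CDKN1B encodes p27, an inhibitor of cyclin-dependent kinases, and ranged from 6.70 to 9.18 log2 CPM in T1, from 7.14 to 9.88 in T2 and from 7.35 to 7.98 in T3. CCNE2, cyclin E2 of the G1/S transition, ranged from no count (T1.5) to 4.84 in T1 alone. CDK20, a kinase linked to cilia and cell growth, had 79 counts over the T1 oocytes and 1 over the T3 oocytes. The depth-corrected ratio was 28.5, with an interval of 4.98 to 1141 that covers counting error only. Of the T1 counts 25 were in T1.3 and 49 in T1.5, and CDK20 had no count in T1.1 and T1.2. Its fitted log2 fold change between T3 and T1 was -4.12 ± 2.42 (adjusted p = 0.615 by the quasi-likelihood test). Both T3 oocytes were below all T2 oocytes for CDK20, at levels near that of no count, and overlapped T1.

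Over these 8 genes 4 fold changes were positive from T1 to T2 and 1 from T2 to T3 (median -1.09). The positive one was CDK13, a transcriptional kinase, at 0.69 ± 0.89. Between T3 and T1 it was again 1 of 8, with a median of -1.06. The medians with T3 stayed negative with each oocyte left out in turn, between -2.39 and -0.79 from T2 to T3. Several of the 8 genes had few counts in T3.2 and T3.4, such as PLK3 (3 and 0), CDK20 (0 and 1) and CCNE2 (29 and 1). CDKN1B (404 and 600) and CDK13 (114 and 235) had more, and the part of low counts in these medians was not tested.

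Of the APC/C, the ubiquitin ligase that marks securin and cyclin B for destruction, ANAPC11 (its RING subunit), CDC27 (a subunit that receives its activators) and the activator CDC20 were among the genes. CDC27 lay between 9.17 and 10.16 log2 CPM in T1, 10.10 and 10.50 in T2, and at 10.25 and 9.38 in T3. CDC20 lay at 5.08, 4.17, 5.18, 7.30 and 3.98 in the T1 oocytes, at 8.401, 5.37, 4.99 and 5.32 in the T2 oocytes, and at 5.48 and 3.41 in the T3 oocytes. T1.5 and T2.1 were thus each more than 2 log2 units above the others of their time point, and the groups overlapped.

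The log2 fold changes of CDC20 were 1.1003 ± 0.86 from T1 to T2 and -2.06 ± 1.23 from T2 to T3, with adjusted p-values of 0.697 and 0.411 by the quasi-likelihood test. ANAPC11 ranged from 4.06 to 7.34 log2 CPM in T1 alone. All 3 genes had a positive fold change from T1 to T2 and a negative one from T2 to T3. Without T2.1, however, only 1 of 3 was positive from T1 to T2, with a median of -0.28.

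Among the spindle motors, KIF11 is the kinesin that pushes spindle poles apart, KIF20B acts in cytokinesis, KIF22 pushes chromosome arms towards the equator, and TPX2 nucleates microtubules near chromatin and activates Aurora A. KIF20B lay at 10.15 to 12.23 log2 CPM in T1, 11.60 to 12.10 in T2 and 11.10 and 11.86 in T3. TPX2 lay at 11.19, 7.99, 9.00, 9.65 and 9.96 in the T1 oocytes, at 10.38, 10.95, 10.62 and 10.13 in the T2 oocytes, and at 9.78 and 8.32 in the T3 oocytes. KIF11 stood at 6.65, 6.64, 7.00 and 7.05 in the T2 oocytes and at 6.43 and 4.31 in T3.2 and T3.4.

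For TPX2, KIF11 and KIF22 both T3 oocytes were below all T2 oocytes, while the T1 oocytes overlapped both groups. TPX2 had a log2 fold change of -1.29 ± 0.77 from T2 to T3 (adjusted p = 0.404) and KIF11 of -1.11 ± 0.71 (adjusted p = 0.442), by the quasi-likelihood test. The T3 oocytes left out held TPX2 at 9.74, 7.69 and 2.56, also below T2, and with them its log2 fold change was -1.72 ± 0.81 (adjusted p = 0.376). Without T3.2 it was -2.33 and without T3.4 -0.82. All 4 spindle genes were negative from T2 to T3, with a median of -0.88, and this count of 4 did not depend on which of the 11 oocytes was left out. With all 15 oocytes it was 3 of 4, with a median of -1.10.

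Separations of this kind were frequent with 2 oocytes in T3. From T2 to T3, 9 of the 44 genes were lower without overlap (CDK20, CEP170, CEP72, KIF11, KIF22, KIF5B, PLK3, TPX2 and TUBB3), against 19.3% of all genes tested, and 2 were higher (CDK2AP1 and CENPS), against 15.8%. Over all 15 oocytes 5 of the 9 remained (CDK20, CEP72, KIF11, PLK3 and TPX2), against 9.12% of all genes, and 0 were higher, against 0.5%. Between T3 and T1 there was 1 in each direction, CENPS higher (background 3.65%) and PLK3 lower (background 5.2%), and 0 with all 15 oocytes (background 0.0196% and 0.883%). From T1 to T2 KIF5B was higher (background 1.9%) and CENPS and PLK1 were lower (background 2.43%), and with T1.4 these 3 were still separate (background 1.56% and 1.89%).

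The structural maintenance of chromosomes (SMC) genes encode the core of condensin (SMC2), cohesin (SMC3) and the SMC5/6 repair complex (SMC6). SMC3, which holds sister chromatids together, averaged 9.47 ± 0.96 (SD, n = 5), 10.18 ± 0.34 (SD, n = 4) and 9.61 ± 0.17 (SD, n = 2) log2 CPM in T1, T2 and T3. SMC2 averaged 9.22 ± 0.79, 9.73 ± 0.47 and 10.22 ± 0.22, and its log2 fold change between T3 and T1 was 0.87 ± 0.53 (adjusted p = 0.637 by the quasi-likelihood test). SMC6 ran from 3.27 (T1.5) to 7.50 in T1 but only from 7.28 to 7.71 in T2. All 3 had positive fold changes from T1 to T2, whichever oocyte was left out, with a median of 0.46.

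The centrosome and the gamma-tubulin ring, which organize the ends of microtubules, contributed 12 genes. Of the 11 tested, 8 had a positive fold change from T1 to T2 (median 0.29) and 8 a negative one from T2 to T3 (median -0.61). CEP170, a protein of mature centrioles that binds microtubules, lay at 9.36, 8.41, 9.69 and 10.05 log2 CPM in the T2 oocytes and at 7.89 and 8.11 in T3.2 and T3.4. Its log2 fold change from T2 to T3 was -1.47 ± 0.70 (adjusted p = 0.289 by the quasi-likelihood test), but T3.1 and T3.5, at 8.92 and 8.80, were within the T2 range and T3.3, at 10.16, was above it.

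TUBG2, a gamma-tubulin, averaged 6.87 ± 0.67 (SD, n = 4) in T2 and 7.72 ± 0.45 (SD, n = 2) in T3, and T2.1 at 7.86 was inside the T3 range. CDK5RAP2, which anchors gamma-tubulin rings, stood at 8.12 in T3.5, from 56 counts, and between -0.08 and 4.08 in every other oocyte. With all 15 oocytes its log2 fold change between T3 and T1 was 3.298 ± 1.31 (adjusted p = 0.357 by the quasi-likelihood test), beside 0.60 ± 1.09 without the oocytes left out by the study.

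Tubulins, the subunits of microtubules, were represented by 5 genes. The tubulin genes are near copies of one another, and how the authors counted reads shared among them is not given, so their values are uncertain. TUBA1C lay between 4.88 and 7.59 log2 CPM in T1 and between 4.45 and 5.67 in T2, with a log2 fold change of -1.23 ± 0.60 (adjusted p = 0.435 by the quasi-likelihood test), which was -0.63 without T1.5. TUBB3 lay at 6.91, 4.62, 4.37 and 4.12 in the T2 oocytes and at 2.71 and 3.52 in the T3 oocytes, with T1.2 at 1.08 and T1.5 at 6.02. All 5 tubulin genes were listed by the study as higher in >120 μm oocytes.

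The transport kinesins carry cargo along microtubules. KIF5B (ENSBTAG00000002280), the heavy chain of conventional kinesin, stood at 7.82, 6.28, 7.67, 6.77 and 8.01 log2 CPM in the T1 oocytes, at 8.15, 8.44, 8.51 and 8.89 in the T2 oocytes and at 7.88 and 8.10 in the T3 oocytes. Every T2 oocyte was above every T1 oocyte and above T3.2 and T3.4. Of the T3 oocytes left out by the study, T3.1, at 8.34, was within the T2 range, and T3.3 and T3.5, at 6.21 and 6.64, were below it. The log2 fold change from T1 to T2 was 1.104 ± 0.40, with an adjusted p of 0.250 by the quasi-likelihood test. KIF3A, of the kinesin that serves cilia, had a log2 fold change of 0.54 ± 0.41 for the same step.

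CDC45, a helicase factor of DNA replication, had at most 3.31 log2 CPM in the 11 oocytes. Of the genes set apart as taken in by the prefix, CDK2AP1, which binds CDK2, stood at 7.86, 8.05, 6.98, 8.62 and 6.81 in the T1 oocytes, at 5.90, 5.83, 7.29 and 7.29 in the T2 oocytes, and at 8.08 and 8.72 in the T3 oocytes. Both of these T3 oocytes were above all T2 oocytes, with a log2 fold change of 1.71 ± 0.62 (adjusted p = 0.177 by the quasi-likelihood test). Of the T3 oocytes left out by the study, T3.3 at 7.59 and T3.5 at 8.75 were also above all T2 oocytes, but T3.1 at 5.60 was below them. CDK5RAP3, a protein of the UFMylation pathway, had a log2 fold change of -3.01 ± 1.53 between T3 and T1 (adjusted p = 0.563), with no count in T3.2 and a level of 1.79 in T3.4. Without T3.2 this value was -2.01, and without T3.4 it rested on an oocyte with no count.

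Oocytes of T1 differed among themselves more than those of T2 did. The median SD of the 44 genes was 1.02 log2 units over the 5 T1 oocytes, 0.55 over the 4 T2 oocytes and 0.65 over the 2 T3 oocytes. Over all 10198 genes the medians were 1.19, 0.62 and 0.72. The SD was larger in T1 than in T2 for 37 of the 44 genes (84.1%), beside 81.0% of all genes tested, so the genes shared this feature with the rest of the transcriptome. PLK1 had SDs of 0.66 and 0.14 in T1 and T2, KIF22 of 1.17 and 0.08, and SMC6 of 1.78 and 0.19, whereas CDC20 had 1.32 and 1.597 and PLK3 0.96 and 1.302.

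**Figure D4:**
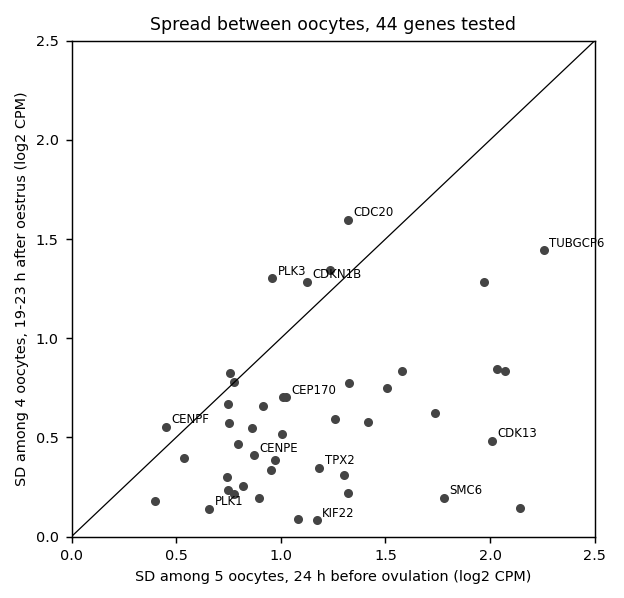
SD of the level (log2 CPM) among the 5 T1 oocytes (x axis) and among the 4 T2 oocytes (y axis) for each of the 44 genes, with the line of equal SD. Most points lie below the line, among them KIF22 and SMC6, and CDC20 and PLK3 lie above it.

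Single oocytes lay at the extremes of many of the genes. Within T1, T1.5 was the lowest of the 5 in 14 of the 24 genes listed for DF and the highest in 16 of the 23 listed for >120 μm oocytes. Over all genes tested T1.5 was the lowest in 15.3% and the highest in 25.0%. T2.1 was likewise the lowest of the T2 oocytes in 14 of the 24 and the highest in 12 of the 23, beside 35.0% and 26.9% of all genes. The median of the 24 genes minus that of the 23 was 2.19 log2 units in T1.5, the smallest of all oocytes, and 6.35 in T1.1, the largest of the 11, and it was positive in all 15. These distances were not tested, because the study chose the lists on these oocytes.

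**Figure D5:**
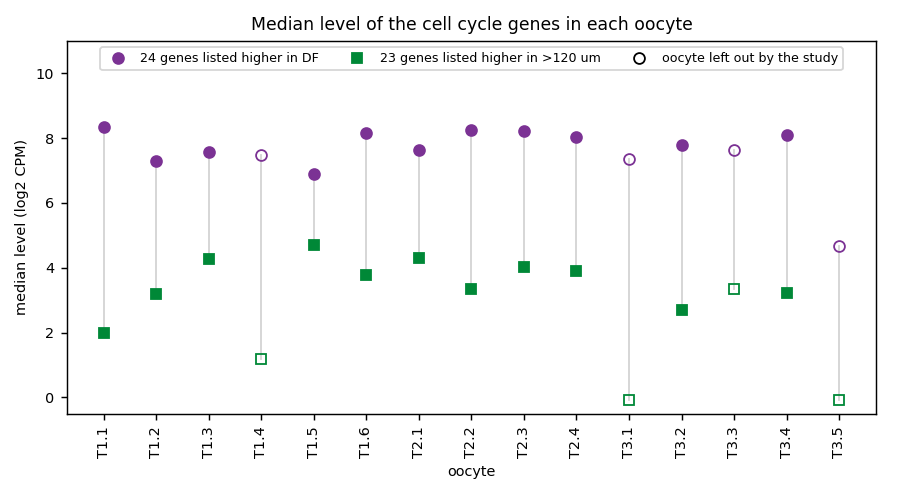
Median level (log2 CPM) of the 24 genes listed as higher in DF (circles) and of the 23 listed as higher in >120 μm oocytes (squares) in each of the 15 oocytes, joined by a line, with open symbols for the oocytes left out by the study. The gap is narrowest in T1.5 (2.19) and widest in T3.1 (7.42), where the median of the 23 genes stands at the level of no count.

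Other genes of the kinetochore, spindle, centrosome and cohesin with a symbol in the same table were read beside these, 42 in all, of which 41 were tested. The quasi-likelihood test called 0 of 41 in each comparison. At an unadjusted p of 0.05 it found 4 between T2 and T1, 6 between T3 and T2 and 2 between T3 and T1, beside 12.2%, 17.3% and 9.09% of all genes tested. Their medians were 0.12 from T1 to T2, -0.31 from T2 to T3 and -0.29 between T3 and T1, beside -0.20, -0.10 and -0.21 over all genes.

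SPC24, a subunit of the NDC80 complex at the outer kinetochore, was at 3.14 to 8.06 log2 CPM in the 5 T1 oocytes, had no count in T2.1 and 3.51 to 3.81 in the other T2 oocytes, and stood at 6.63 and 8.04 in T3.2 and T3.4. Its log2 fold change was -3.43 ± 1.01 from T1 to T2 (adjusted p = 0.157) and 4.30 ± 1.14 from T2 to T3 (adjusted p = 0.0788), by the quasi-likelihood test. The likelihood ratio test gave adjusted p-values of 0.0225 and 0.00552 and DESeq2 gave 0.00970 and 0.00780. These comparisons share the T2 oocytes, as do those of CENPS. Of the T3 oocytes left out by the study, T3.1 and T3.5 had no count of SPC24, which in those libraries allows up to 4.83 and 17.1 CPM. T3.3 stood at 5.68, from 11 counts, above the T2 oocytes but below T3.2 and T3.4.

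CIP2A, an inhibitor of protein phosphatase 2A, lay between 6.57 and 8.91 log2 CPM in the T1 oocytes and between 9.53 and 10.13 in the T2 oocytes. It was thus higher in T2 without overlap, as were 1.9% of all genes tested. The log2 fold change was 1.73 ± 0.44 (adjusted p = 0.135 by the quasi-likelihood test, 0.0182 by the likelihood ratio test and 0.00960 by DESeq2). RCC1, the exchange factor that makes Ran-GTP at chromatin for spindle assembly, had 54 counts over the T1 oocytes, 44 over the T2 oocytes and 0 in T3.2 and T3.4. At a floor of 3 counts over the group this is at least 10.4-fold lower than T2, a limit that covers counting error only. Its log2 fold change was -6.95 ± 2.62 from T2 to T3 (adjusted p = 0.194) and -6.31 ± 2.55 between T3 and T1 (adjusted p = 0.497), by the quasi-likelihood test. RCC1 had no count in T3.1, T3.3 or T3.5 either, and in T1.2 and T1.4.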

How the data were processed

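The authors trimmed the reads (Trim Galore, version 0.6.6 per the labels), aligned them with HISAT2 (assembly ARS-UCD1.2), and the deposited values are raw SeqMonk counts for each Ensembl gene. Annotation release, strandedness, duplicate removal and the handling of shared reads are not given in the sources used here, so overlapping genes cannot be told apart. Reads carry no molecular identifiers, so counting limits cover counting error only. Each oocyte is 1 animal.

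From the counts, edgeR (version 4.0.16, R 4.3.3) fitted the 3 time points of 11 oocytes together (TMM, filterByExpr, quasi-likelihood F-test, Benjamini-Hochberg), with the SE taken from the log2 fold change and F. The common dispersion was 0.773. The procedure was run on simulated data as a check of the code, and its power at the spread of these oocytes is not given here. Alternatives were DESeq2 (version 1.42.0), the likelihood ratio test, other scalings, filters and prior counts, all 15 oocytes, calls without a fold-change minimum, a replicate block and each oocyte left out in turn. All 15 oocytes with the likelihood ratio test was chosen after seeing the data.

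Named genes were, per comparison, the 4 of the genes with the smallest p in each direction, 10 central regulators, and 3 of the related list per comparison. The genes and lists were chosen with earlier results of these data known. Symbols came from the table of the study. A further list of 62 meiotic genes had 1 with a symbol, GPR3, and was not used as a list.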

Additional observations from a re-analysis of the deposited data

Results flagged for a closer look

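In 24 of the genes each time point with 4 or 5 oocytes was examined for an oocyte far from the others, by the gap to its neighbour as a share of the range of the group. This found 2 in 48 sets, which is no larger a share than the 1 in 20 that chance gives. Both concern T2.1. CDC20 stood at 8.401 log2 CPM there, against 4.99 to 5.37 in the other T2 oocytes (gap 0.888 of the range). PLK3 stood at 5.44 log2 CPM there, against 2.69 to 3.09 in the other T2 oocytes (gap 0.855 of the range).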

How the results depend on the processing

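The number of the genes called, 0 in each comparison, became 1 from T1 to T2 under DESeq2, the likelihood ratio test and a minimum of 10 counts in each oocyte (CENPS each time), and from T2 to T3 it became 1 under the likelihood ratio test, that minimum and no filter on low counts (CENPS) and 2 with DESeq2 (CENPS and PLK3). With each oocyte left out in turn it was 0 from T1 to T2, 0 to 1 from T2 to T3 (1 without T1.1 and without T1.2, CENPS both times) and 0 between T3 and T1. Leaving out a T3 oocyte leaves a single oocyte there, whose variation is taken from the other time points. The median log2 fold change from T2 to T3, -0.55, was -0.71 with upper-quartile scaling, -0.25 with the minimum of 10 counts, which leaves 28 of the genes, -0.82 with all 15 oocytes and -0.84 with all 15 and the likelihood ratio test. Between T3 and T1 it moved from -0.14 to -0.0287 with that minimum. Without single oocytes the medians ran from 0.21 to 0.48 from T1 to T2 (0.48 without T1.1), from -0.65 to -0.49 from T2 to T3, and from -0.38 to 0.0876 between T3 and T1. Directions reversed for CENPT from T2 to T3, which ran from -0.34 (without T3.4) to 2.32 with single oocytes left out, and for CENPS between T3 and T1, at -0.17 with all 15 oocytes and -0.17 with the likelihood ratio test on all 15. PLK3 differed by -4.16 from T2 to T3 and by -3.51 between T3 and T1 in mean log2 CPM with a prior count of 0.5. The causes of these shifts were not tested.

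The replicate numbers of the labels mark different animals and did not pair the oocytes. Deviations of same-numbered T1 and T2 oocytes from their group means correlated at 0.137, 0.015 and 0.069. A fit with the replicate number as a block called 0 of the genes in each comparison and gave medians of 0.41 from T1 to T2, -0.54 from T2 to T3 and 0.0307 between T3 and T1. For single genes 722 of the other values kept their direction and their side of the threshold and 24 passed the threshold only under an alternative. The group at 2 h before ovulation holds 2 oocytes, and totals go down to 824854 counts.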

Other observations

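Of the related kinetochore, spindle and cohesin genes, 4 more were among those with the smallest p. TOP2A, the topoisomerase that untangles sister chromatids, had a log2 fold change of 1.13 ± 0.51 from T1 to T2 (adjusted p = 0.381 by the edgeR quasi-likelihood test). PDS5A, a cohesin regulator, had -1.40 ± 0.56 from T2 to T3 (adjusted p = 0.212 by the same test), and its level was between 7.67 and 8.27 log2 CPM in the T2 oocytes and 6.51 and 6.56 in T3.2 and T3.4. HAUS2, of the augmin complex that branches spindle microtubules, had 1.36 ± 0.47 between T3 and T1 (adjusted p = 0.411 by the same test). Its level was 5.42 to 6.77 log2 CPM in the 5 T1 oocytes and 7.23 and 7.69 in T3.2 and T3.4. Of the oocytes left out by the study, T3.1 stood at 7.565 and T3.3 at 2.46, and T1.4 and T3.5 had no count. MAD2L2, an adaptor of translesion synthesis that also binds the APC/C, had -1.45 ± 0.78 between T3 and T1 (adjusted p = 0.580), with 5.45, 7.35, 7.61, 8.77 and 7.97 log2 CPM in the 5 T1 oocytes and 4.82 and 7.03 in T3.2 and T3.4. This value was -0.69 without T3.2 and -2.95 without T3.4.

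GPR3, the receptor that holds meiotic arrest through cyclic AMP, had between 0 and 8 counts in each of the 15 oocytes, with 4, 2, 1 and 7 counts in T2.1 to T2.4 and 0 and 1 in T3.2 and T3.4. These counts are too few for a comparison of the time points. FIGLA, an oocyte transcription factor read above as a marker, lay between 6.26 and 11.91 log2 CPM in the 5 T1 oocytes, between 4.18 and 8.61 in the T2 oocytes and at 10.18 and 11.39 in T3.2 and T3.4. Both of these T3 oocytes were above all T2 oocytes, as for CENPS. Of the T3 oocytes left out by the study, T3.3 at 11.20 and T3.5 at 8.79 were also above all T2 oocytes, and T3.1 stood at 1.47. FIGLA was singled out after its values were seen.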
